A study of Mus musculus with 40 samples.

Results

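MII oocytes of females that lose TDP-43 in the growing oocyte were compared with MII oocytes of control females, across every gene with a mean of at least 1 FPKM over the 4 MII libraries, which were 7906 of the 24056 genes with values. The tested oocytes came from Tdp43 floxp/floxp;Zp3-Cre females (Tdp43 oKO), and the control oocytes from Tdp43 floxp/floxp females without Cre. Both carried loxP sites on both sides of exon 3 of Tdp43 and a hybrid C57BL/6J and ICR background. The labels call the groups oocyte knockout and WT. The females were 7 to 8 weeks old, and the oocytes were taken 13 h after HCG, the hormone given after PMSG to bring on ovulation. Each genotype had 2 libraries, and each library pooled 20 oocytes freed of their zona. These are 4 of the 40 samples of a study of maternal TDP-43 in mouse oocytes and embryos. Full-grown oocytes (FGO, taken before maturation, 48 h after PMSG) and late 1-cell embryos (30 h after HCG, from females mated with ICR males), with 2 libraries per genotype each, were used to see whether the change in MII oocytes differed from that at the stage before and the stage after. The Zp3 promoter works in growing oocytes and not in the somatic cells around them.

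TDP-43, encoded by Tardbp, is an RNA-binding protein of the nucleus that prefers UG-rich RNA, and it is known for its part in splicing and RNA stability and for its loss from the nucleus in motor neuron disease. A full-grown oocyte stops transcription before it matures to metaphase II. Its transcripts then persist, gain or lose their poly(A) tails, or are degraded without being replaced. The values here are FPKM, fragment numbers divided by transcript length and by the total mapped in each library, from libraries primed with oligo-dT. In a pool of oocytes fewer cells with an RNA and less RNA per cell cannot be told apart.

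In mm9, Tardbp is read from the minus strand of chromosome 4 between 147986491 and 148001128. Its level was 3.87 and 4.84 FPKM in Tdp43 oKO MII oocytes, against 19.7 and 20.3 FPKM in control MII oocytes. The groups did not overlap, which is the order the labels require, and the log2 fold change on log2(FPKM + 1) was -1.98 (SE 0.16, adjusted p = 1.55e-07, limma). The value covers the whole gene and does not show exon 3 alone.

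The summed FPKM was 386405 and 390681 in the Tdp43 oKO libraries, against 370278 and 372066 in the control libraries. The number of reads is not known from such values. On log2(FPKM + 1), replicates correlated at 0.989 (Tdp43 oKO) and 0.984 (control) across genes, and libraries of different genotype at 0.954 to 0.964. All 12 oocyte markers were expressed, with 1 called (Zp3). Of 23 markers of cumulus and granulosa cells 20 were under the threshold on the mean and 12 were listed at 0 in all 4 libraries, Fshr, Amh and Foxl2 among them, and the list summed to 173 and 176 FPKM in Tdp43 oKO oocytes and to 175 and 152 FPKM in control oocytes, nearly all of it Serpine2, which the oocyte libraries thus hold at 157 and 162 against 155 and 136 FPKM. Of 18 markers of blood and immune cells 14, and of 15 of oviduct epithelium 8, were listed at 0 in all 4 libraries, and no marker of these lists was called.

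At an adjusted p of at most 0.05 (limma, Benjamini-Hochberg) and a change of at least 2-fold, 335 genes were higher in Tdp43 oKO MII oocytes (4.24% of those tested) and 105 were lower (1.33%), together 5.57%. In every called gene the 2 Tdp43 oKO libraries lay on one side of both control libraries. Among all genes tested, 25.7% had both Tdp43 oKO libraries above both control libraries and 35.2% had both below. The median log2 fold change over all genes was -0.07, and 26 increases and 11 decreases were at least 4-fold. The sources used do not say whether the pools came from separate animals, and the p-values then refer to the spread among libraries. That spread was estimated from all 24 RNA-seq libraries of the study, not from the 4 MII libraries alone. Without the second Tdp43 oKO library the counts were 211 higher and 62 lower.

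**Figure D1:**
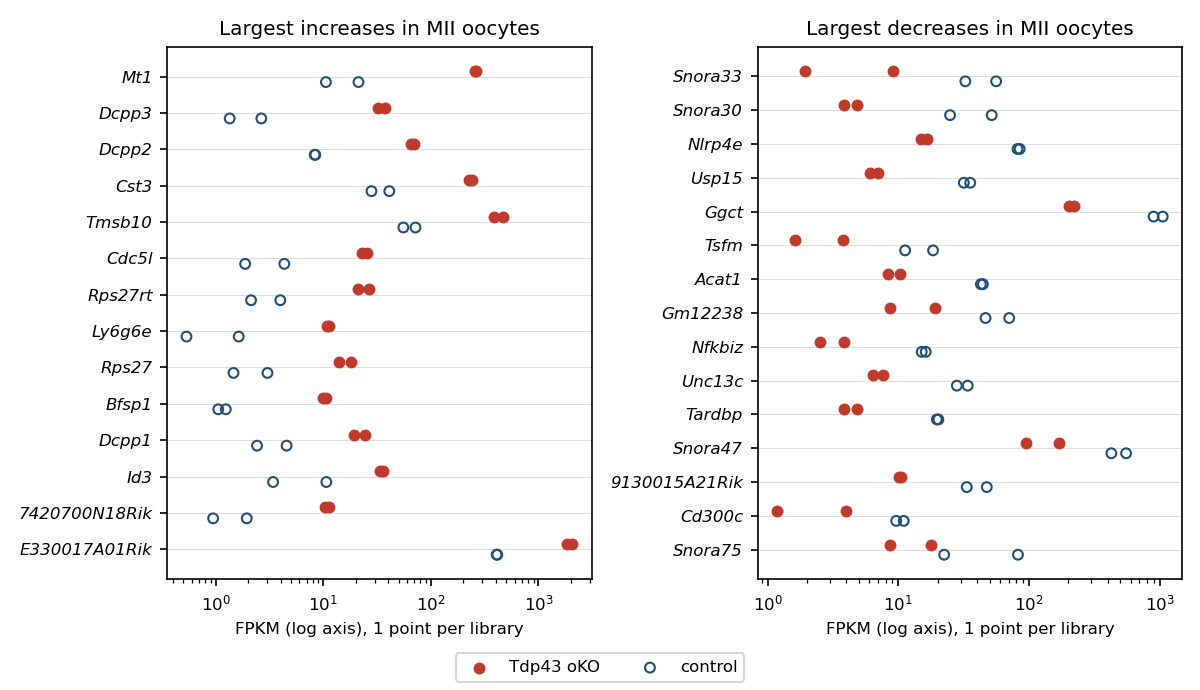
The largest called increases (left, 14 genes) and decreases (right, 15 genes) among genes with a mean of at least 5 FPKM, 1 point per library on a log FPKM axis, with filled points for the 2 Tdp43 oKO libraries and open points for the 2 control libraries. Only genes with the groups apart were chosen, and the rows run from Mt1 (262 and 255 against 21.2 and 10.6 FPKM) to Snora75 (17.9 and 8.64 against 22.4 and 82.4 FPKM).

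The largest increase was in Mt1, which encodes metallothionein 1, a small cysteine-rich protein that binds zinc and other metals. Mt1 was 262 and 255 FPKM in Tdp43 oKO oocytes, against 21.2 and 10.6 FPKM in control oocytes, a ratio of means of 16.2. The 2 Tdp43 oKO libraries lay close together and far above the control libraries (log2 fold change 4.01, SE 0.31, adjusted p = 1.44e-07, limma). Its neighbour Mt2, metallothionein 2, was 17.3 and 29.4 FPKM in Tdp43 oKO oocytes, against 1.43 and 9.98 FPKM in control oocytes. The control libraries of Mt2 differed from each other more than those of Mt1, and the log2 fold change was 2.19 (SE 0.58, adjusted p = 0.0168, limma). Mt4, a metallothionein of stratified epithelia, was 10.2 and 15.01 FPKM against 13.5 and 11.6 FPKM, with overlapping groups. Mtf1, the zinc-sensing factor that activates Mt1 and Mt2 in other tissues, was 4.64 and 4.47 FPKM against 5.77 and 4.45 FPKM. None of the 10 zinc transporter genes tested was called, and their median log2 fold change was -0.17.

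Factor MTF1 binds metal response elements, whose core is TGCACNC or TGCGCNC. Both strands of the 250 bases before each annotated start were searched for this core in the mm9 genome, to show what lies in front of the 2 genes. The window before the downstream one of the Mt1 starts (chr8:96702861-96703110, plus strand) held 5 matches, that before the upstream start (chr8:96702739-96702988) held 1, and that of Mt2 (chr8:96696268-96696517, plus strand) held 3. Of 18136 such windows of 7439 tested genes, 28.7% held at least 1 match, 1.99% at least 3 and 0.127% at least 5. The matches are shown with 4 bases on each side and the core in capitals, on the strand of the gene; cores that read on the other strand are so marked. Positions count from the start of the gene back to the first base of the core.
Mt1, 145 bases before the downstream start, chr8:96702962-96702976: gctgTGCACACtggc
Mt1, 120 bases before, chr8:96702987-96703001: gctcTGCACTCcgcc
Mt1, 102 bases before, chr8:96703005-96703019: aaagTGCGCTCggct
Mt1, 38 bases before, other strand, chr8:96703069-96703083: tgctGGGTGCAaacc
Mt1, 24 bases before, chr8:96703083-96703097: ccttTGCGCCCggac
Mt2, 223 bases before, chr8:96696291-96696305: cctcTGCACCCggcc
Mt2, 128 bases before, chr8:96696386-96696400: ccttTGCGCTCagct
Mt2, 50 bases before, other strand, chr8:96696464-96696478: gggcGTGTGCAggct
A match of letters is not a measured binding site, and binding was not measured here.

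All 3 measured genes of the Dcpp family (demilune cell and parotid proteins, small secreted proteins) were among the largest increases. Dcpp3 was 37.6 and 32.1 FPKM in Tdp43 oKO oocytes, against 2.65 and 1.35 FPKM in control oocytes (log2 fold change 3.61, SE 0.23, adjusted p = 1.15e-08, limma). Dcpp2 was 66.0 and 70.1 FPKM against 8.43 and 8.31 FPKM, and Dcpp1 24.4 and 19.2 FPKM against 4.56 and 2.42 FPKM, with log2 fold changes of 2.88 and 2.38. The family summed to 128 and 121 FPKM in Tdp43 oKO oocytes, against 15.6 and 12.1 FPKM in control oocytes. The 3 genes lie together on chromosome 17 and are nearly alike, and the annotated spans of Dcpp1 and Dcpp2 overlap, so the way their reads were shared among them is uncertain.

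The other large increases were in genes of diverse roles. Cst3, which encodes the secreted protease inhibitor cystatin C, was 243 and 227 FPKM in Tdp43 oKO oocytes, against 41.0 and 28.02 FPKM in control oocytes (log2 fold change 2.75). Tmsb10, whose product thymosin beta 10 binds actin monomers, was 387 and 470 FPKM against 71.9 and 55.4 FPKM (2.74). Cdc5l, a component of the spliceosome, was 22.8 and 25.7 FPKM against 4.34 and 1.88 FPKM (2.69). The groups were far apart in all 3. Id3, which encodes an inhibitor of helix-loop-helix transcription factors, was 35.7 and 34.0 FPKM against 10.7 and 3.41 FPKM (2.32). Bfsp1, known for a filament protein of the lens, was 9.92 and 10.7 FPKM against 1.24 and 1.06 FPKM (2.39), and Ly6g6e, of the Ly6 family, 10.9 and 11.3 FPKM against 1.63 and 0.535 FPKM (2.59). The most abundant of the largest increases shown was E330017A01Rik, at 1822 and 2060 FPKM against 414 and 408 FPKM (2.23).

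The largest decreases outside the small RNAs were in Nlrp4e, Usp15, Ggct, Tsfm and Acat1. Nlrp4e, of the NLR family expressed in oocytes, was 14.9 and 16.7 FPKM in Tdp43 oKO oocytes, against 81.7 and 84.9 FPKM in control oocytes (log2 fold change -2.33, SE 0.19, adjusted p = 1.55e-07, limma). Its relatives Nlrp4f (393 and 393 against 565 and 564 FPKM) and Nlrp9c (329 and 340 against 357 and 428 FPKM) were not called, and Nlrp4e was the one called gene of 35 tested in the oocyte Nlrp, Oog, Tcl1 and Fbxw families. Ggct, which encodes gamma-glutamylcyclotransferase of glutathione breakdown, was the most abundant of these genes, at 221 and 204 FPKM against 900 and 1056 FPKM (log2 fold change -2.19, SE 0.14, adjusted p = 1.15e-08, limma). Usp15, a deubiquitinating enzyme, was 6.98 and 6.12 FPKM against 31.7 and 35.5 FPKM (-2.20). Acat1 and Tsfm serve mitochondria. Acat1, the acetyl-CoA acetyltransferase of ketone body and isoleucine metabolism, was 10.3 and 8.27 FPKM against 42.9 and 44.4 FPKM (-2.13), and Tsfm, an elongation factor of mitochondrial translation, 3.78 and 1.61 FPKM against 18.4 and 11.3 FPKM (-2.13). Unc13c, known for the release of synaptic vesicles, was 7.70 and 6.41 FPKM against 28.1 and 34.0 FPKM (-1.99).

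Of the genes lower in MII oocytes, 25 were also lower in FGO and in 1-cell embryos, and 21 of those higher were higher at all 3 stages. The 25 include Tardbp itself, Nlrp4e, Usp15, Ggct, Tsfm, Acat1 and Unc13c, with the translation factor gene Eif4g3, the centrosome gene Cep192, the replication gene Wdhd1 and Arnt, a partner of the aryl hydrocarbon receptor. Libraries of the 3 stages are separate. Over the 7906 genes, 113 were higher (1.43%) and 95 lower (1.2%) in Tdp43 oKO FGO, together 2.63%, and 105 were higher (1.33%) and 169 lower (2.14%) in Tdp43 oKO 1-cell embryos, together 3.47%. The genes called lower in both MII oocytes and FGO were 37, which is 35.2% of the MII list and 39.0% of the FGO list. Those called higher in both were 40, which is 11.9% of the MII list and 35.4% of the FGO list.

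Because TDP-43 prefers UG repeats, the gene spans in mm9 were searched on the sense strand for runs of at least 6 TG dinucleotides. Of the 25 genes lower at all 3 stages, 84% held such a run, against 69.6% of all tested genes with a position. Their median span was also longer, 30.03 against 25.01 kb, and the number of runs per 100 kb was 10.4 against 10.2. Of the genes called lower in MII oocytes as a whole, 68.0% held a run, with a median span of 27.5 kb and 11.3 runs per 100 kb. Where the difference from FGO was also called, 47.1% of the lower genes held a run, with a median span of 7.31 kb. Genes called higher in MII oocytes were short (median span 6.31 kb) and 40.2% held a run, at 9.57 per 100 kb. Tardbp, the targeted gene, is one of the 25. The longest run of 3 of the largest decreases is shown with 10 bases on each side, in capitals, on the sense strand in mm9. All 3 lie in introns and on the minus strand.
Usp15, 1 of 2 runs, chr10:122587985-122588026: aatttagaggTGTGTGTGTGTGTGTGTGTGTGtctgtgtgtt
Acat1, 1 of 4 runs, chr9:53409463-53409506: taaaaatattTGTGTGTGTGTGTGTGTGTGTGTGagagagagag
Ggct, its 1 run, chr6:54941992-54942069: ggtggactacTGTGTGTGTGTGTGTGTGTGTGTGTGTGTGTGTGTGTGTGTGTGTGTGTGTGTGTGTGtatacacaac
These are descriptions of the genome sequence. Binding of TDP-43 to these RNAs and their splicing were not analysed here.

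Genes for proteins of the cytoplasmic ribosome were higher as a group in Tdp43 oKO MII oocytes. Of 78 tested, 21 were called higher (26.9%, against 4.24% over all genes) and none lower. A log2 fold change above 0 was found in 70 (89.7%, against 42.5% over all genes), and the median was 0.71, against -0.07 over all genes. The large subunit had 10 of 46 called and the small subunit 11 of 32. Rps27 was 13.9 and 17.9 FPKM in Tdp43 oKO oocytes, against 3.03 and 1.46 FPKM in control oocytes (log2 fold change 2.42, SE 0.25, adjusted p = 1.47e-06, limma). Its retrogene Rps27rt moved with it (20.9 and 26.4 against 3.98 and 2.13 FPKM), and reads may be split between the pair. Rps13 was 75.1 and 93.3 FPKM against 20.8 and 23.6 FPKM (1.87). In the large subunit Rpl7 was 18.6 and 19.6 FPKM against 3.34 and 5.41 FPKM (1.93). Rpl41, the most abundant of those called, was 1258 and 1206 FPKM against 440 and 357 FPKM (1.63). The groups were apart in each of these genes. The lowest value of the list was that of Rps16 (29.8 and 33.0 against 46.7 and 47.2 FPKM, log2 fold change -0.57), which was not called. Ribosomal protein genes have many processed pseudogenes that can share their reads.

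**Figure D2:**
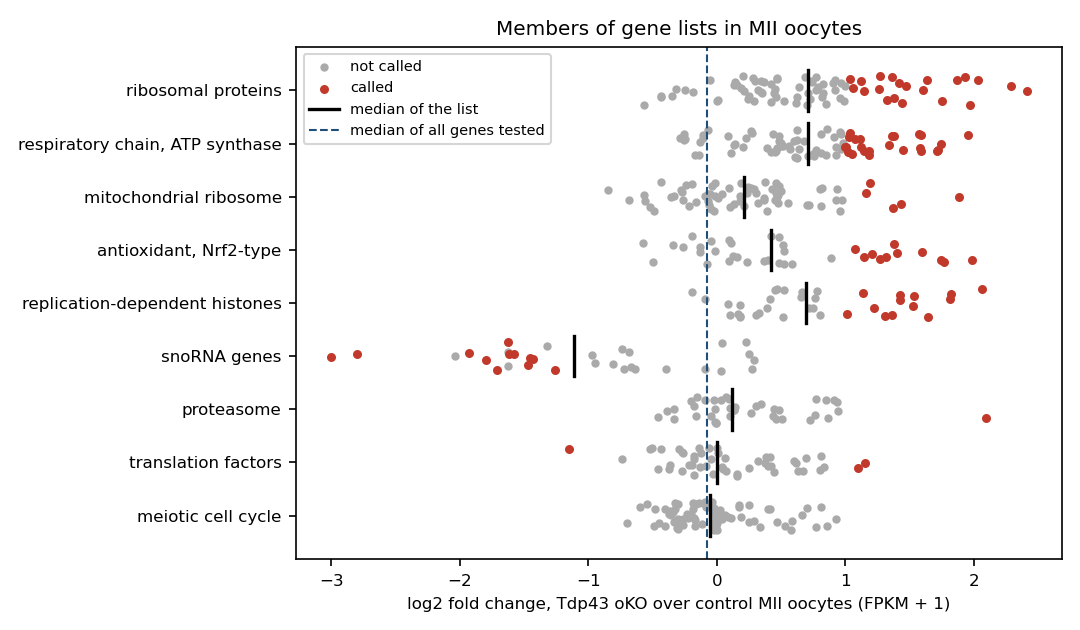
Log2 fold changes of Tdp43 oKO over control MII oocytes, 1 point per gene in each list, with called genes in red, the median of each list as a black line and the median of all 7906 genes (-0.07) as a dashed line. Ribosomal protein, respiratory chain and histone genes lie mostly to the right, with medians of 0.71, 0.71 and 0.69. The 32 snoRNA genes that passed the threshold on the mean lie to the left (median -1.11, against -0.27 for 78 without the filter).

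Genes of the respiratory chain and ATP synthase, whose complexes make ATP in the inner mitochondrial membrane, had the same pattern. Of 77 tested, 24 were called higher (31.2%, against 4.24% over all genes) and none lower, 67 were above 0 (87.0%, against 42.5%), and the median log2 fold change was 0.71. Calls came from each complex: 11 of 36 for complex I, 1 of 4 for complex II, 3 of 7 for complex III, 2 of 12 for complex IV and 7 of 17 for ATP synthase. In complex I, Ndufa5 was 194 and 170 FPKM in Tdp43 oKO oocytes, against 49.5 and 60.3 FPKM in control oocytes (log2 fold change 1.72, SE 0.21, adjusted p = 1.01e-05, limma). Uqcrh of complex III was 341 and 368 FPKM against 119 and 118 FPKM (1.57). Cox7c of complex IV was 150 and 173 FPKM against 44.5 and 37.3 FPKM (1.95), and Atp5h of ATP synthase 149 and 183 FPKM against 50.9 and 47.9 FPKM (1.72). None of the groups overlapped. Cycs, which encodes the electron carrier cytochrome c, was 29.1 and 31.4 FPKM against 29.7 and 37.4 FPKM and was not called.

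The other mitochondrial lists had some calls too, all of them higher, as were 76.1% of all calls. Among 69 genes of the mitochondrial ribosome 5 were higher (7.25%, against 4.24% over all genes) and the median was 0.21. Mrpl33 was 19.2 and 15.3 FPKM in Tdp43 oKO oocytes, against 3.77 and 4.09 FPKM in control oocytes (1.88). Of 21 genes of protein import 4 were higher (median 0.51), among them Tomm6 of the outer membrane pore (73.1 and 84.6 against 24.3 and 21.2 FPKM). Of 18 assembly factors 4 were higher (median -0.11), among them the copper chaperone Cox17 (95.6 and 105 against 32.6 and 35.0 FPKM).

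Summed values of the ribosomal and respiratory transcripts were lower in MII oocytes than in FGO in both genotypes. Ribosomal protein genes summed to 20272 and 22819 FPKM in Tdp43 oKO FGO, against 21449 and 19796 FPKM in control FGO, and the genotypes overlapped. In MII oocytes the sums were 6388 and 6585 FPKM in Tdp43 oKO oocytes, against 3843 and 3723 FPKM in control oocytes, and did not overlap. In 1-cell embryos they were 3648 and 3617 FPKM in Tdp43 oKO embryos, against 3024 and 3350 FPKM in control embryos, and did not overlap either. Respiratory chain and ATP synthase genes summed to 17709 and 19489 FPKM against 18468 and 17457 FPKM in FGO, to 10323 and 10295 FPKM against 6503 and 6765 FPKM in MII oocytes, and to 6597 and 6486 FPKM against 5784 and 6273 FPKM in 1-cell embryos, where the genotypes were also apart. The change in MII oocytes was above that in FGO by the test of the difference in 23 ribosomal protein genes and 17 respiratory chain genes, and above that in 1-cell embryos in 19 and 15. It was below the FGO change in none, and below the 1-cell change in 1 ribosomal protein gene. In FGO, no ribosomal protein or respiratory chain gene was called higher, and 1 ribosomal protein gene was called lower. In 1-cell embryos 4 ribosomal protein genes were called higher and 1 lower, and no respiratory chain gene was called.

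**Figure D3:**
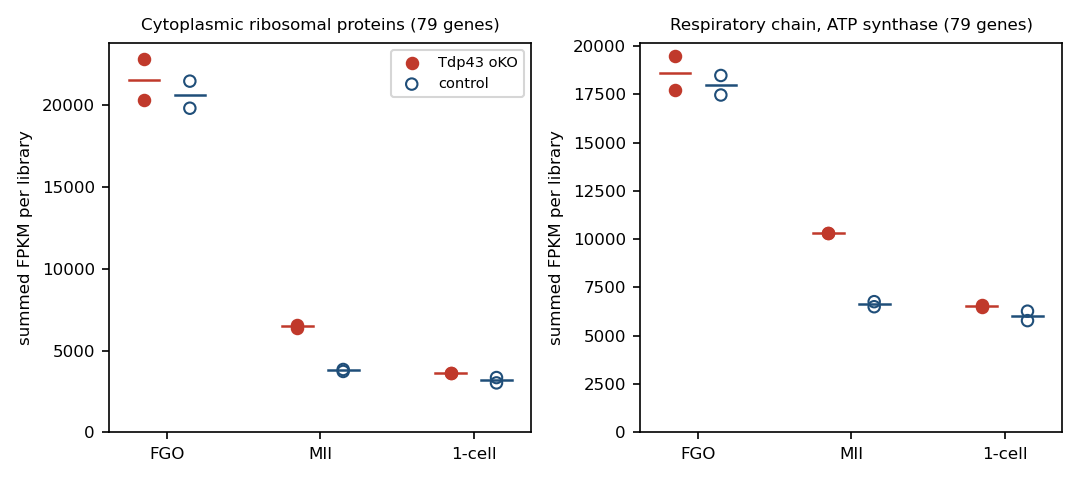
Summed FPKM of cytoplasmic ribosomal protein genes (left) and of respiratory chain and ATP synthase genes (right), by stage, with 1 point per library, filled for Tdp43 oKO and open for control, and a line at the mean. The genotypes overlap in FGO and are apart in MII oocytes (6388 and 6585 against 3843 and 3723, and 10323 and 10295 against 6503 and 6765) and, by less, in 1-cell embryos (3648 and 3617 against 3024 and 3350, and 6597 and 6486 against 5784 and 6273).

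Many of these transcripts are short, and across genes the change in MII oocytes fell with transcript length (Spearman -0.30 over 7672 genes with a length, against -0.05 in FGO and -0.12 in 1-cell embryos; genes are not independent replicates). With the genes cut by length into 4 bins of like size, the shortest bin (up to 1744 bases) had a median log2 fold change of 0.21, and the other bins, in order of length, had medians of -0.06, -0.13 and -0.17. Of the shortest bin 12.6% were called higher, and of the longest 0.365%. The median length was 935 bases for ribosomal protein genes and 971 for respiratory chain genes, against 2868 over all genes tested. With the trend on length removed within each library, 12 ribosomal protein genes were called higher and 1 lower (Rps16), and the median of the list was 0.34. For the respiratory chain 12 were called higher and none lower, with a median of 0.43. The 12 ribosomal protein genes include Rps27, Rps19, Rpsa, Rpl7 and Rps13, and the 12 respiratory chain genes include Atp5e, Cox7c, Ndufa5 and Atp5h. The difference between the 2 Tdp43 oKO libraries also varied with length (Spearman 0.17), that between the 2 control libraries less (-0.02).

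**Figure D4:**
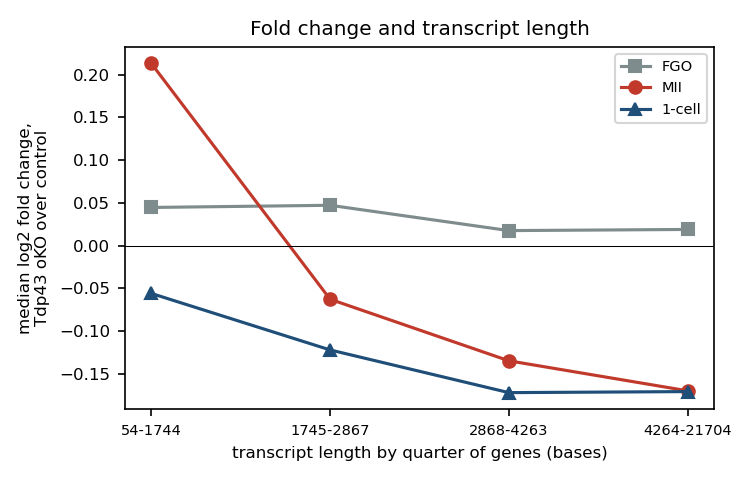
Median log2 fold change of Tdp43 oKO over control in 4 bins of transcript length, short to long, for FGO, MII oocytes and 1-cell embryos over the genes tested in MII oocytes. The MII line falls across the bins (0.21, -0.06, -0.13 and -0.17), the 1-cell line falls less (-0.06, -0.12, -0.17 and -0.17), and the FGO line stays between 0.02 and 0.05.

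Genes against oxidative stress formed another group with calls in 1 direction. Of 37 antioxidant and Nrf2-type genes tested, 11 were higher (29.7%, against 4.24% over all genes) and none lower. The median log2 fold change was 0.42, against -0.07 over all genes. Gpx1, glutathione peroxidase 1, was 49.0 and 43.8 FPKM in Tdp43 oKO oocytes, against 16.6 and 10.3 FPKM in control oocytes (log2 fold change 1.75, SE 0.31, adjusted p = 0.000634, limma). Gstp1, a glutathione transferase, was 113 and 131 FPKM against 54.5 and 38 FPKM (1.40), and Hmox1, the inducible heme oxygenase, 3.52 and 3.01 FPKM against 0.796 and 0.625 FPKM (1.32). These 3 genes were called higher in FGO and 1-cell embryos too. Prdx3, the peroxiredoxin of mitochondria, was 26.5 and 29.4 FPKM against 5.78 and 6.85 FPKM (1.99). The ferritin genes Fth1 (27.7 and 29.5 against 8.42 and 9.12 FPKM) and Ftl1 (154 and 160 against 69.1 and 51.8 FPKM) store iron. Prdx3 and Fth1 were not called in FGO, and the change in MII oocytes was above that in FGO (differences of 1.87 and 1.51, adjusted p = 0.000236 and 0.00149, limma). Gsto2, a glutathione transferase of the omega class, was 5.35 and 8.78 FPKM against 1.52 and 1.14 FPKM in MII oocytes and changed the other way in FGO (log2 fold changes 1.76 and -2.12). The core TGACNNNGC, to which Nrf2 binds, was found in the 250 bases before a start of 1 of the 11 genes called higher and of 6 of the other 26. Of all single windows 11.5% held it. A gene was counted if any of its windows held the core, so the share of windows is not directly comparable. Without the second Tdp43 oKO library 6 genes of the list were called higher, without the first 7, and with a pseudocount of 5 there were 5.

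Replication-dependent histone genes, whose transcripts end in a stem-loop in place of a poly(A) tail, were also higher. The libraries were primed with oligo-dT, which pairs with poly(A), so these values may cover only part of the histone transcripts. Of 36 tested, 13 were called higher (36.1%, against 4.24% over all genes) and none lower. The median log2 fold change was 0.69, against -0.07 over all genes. None of 16 genes for linker and variant histones and their chaperones was called (median -0.04). Over both kinds of genes together (52 tested) the median was 0.46, and 0.18 with the trend on length removed. Hist1h2bc, the most abundant of those called, was 211 and 233 FPKM in Tdp43 oKO oocytes, against 92.9 and 62.1 FPKM in control oocytes (log2 fold change 1.53, SE 0.32, adjusted p = 0.00257, limma). Hist1h4d was 79.7 and 84.0 FPKM against 29.3 and 30.3 FPKM (1.43), and Hist2h4 4.52 and 5.38 FPKM against 0.314 and 0.539 FPKM (2.06). Their groups did not overlap. Copies of 1 histone type are nearly alike and may share reads. In FGO 7 of the 36 were called higher, with a median of 0.50, and the MII change was above the FGO change in 2. In 1-cell embryos 3 were called higher and 4 lower, with a median of -0.17, and the MII change was above the 1-cell change in 10. Slbp, whose product binds the histone stem-loop, was 1251 and 1304 FPKM against 1414 and 1406 FPKM and was not called. Without the second Tdp43 oKO library 6 histone genes were called higher, with a pseudocount of 5 there were 4, and with the trend on length removed 8.

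Small nucleolar RNA genes moved the other way. These short RNAs guide the modification of other RNAs, lie mostly in introns and are cut out of the transcripts of their host genes. Of 114 such genes listed 32 passed the threshold on the mean, and of these 12 were called lower and none higher (median log2 fold change -1.11). Over all genes tested 1.33% were called lower, and the median was -0.07. The threshold is on the mean of both groups, so a gene can pass it through high control values alone. Without this filter 78 snoRNA genes were tested, 9 were called lower and none higher, and the median was -0.27. Snora33 was 9.19 and 1.94 FPKM in Tdp43 oKO oocytes, against 32.6 and 56.1 FPKM in control oocytes (log2 fold change -3.002, SE 0.54, adjusted p = 0.00122, limma). Snora30 was 4.85 and 3.85 FPKM against 24.9 and 51.9 FPKM (-2.80), and Snora47, the most abundant, 171 and 94.6 FPKM against 427 and 554 FPKM (-1.93). The groups did not overlap, but the libraries of 1 group differed by up to several fold, and the number of calls depends on single libraries of both genotypes. Without the second Tdp43 oKO library 2 snoRNA genes were called lower, and without the first 7. Without the first control library 18 were called lower, and without the second 6 were called lower and 2 higher, with a median of -0.72. In FGO the list had a median of 0.26, and the change in MII oocytes was below that in FGO in 8 genes. In 1-cell embryos 6 were called lower. Mature snoRNAs have no poly(A) tail as a rule and are much shorter than most transcripts, so an FPKM of this size can rest on few fragments. The 3 genes are shown in mm9 on their own strand, and the box ACA that stands 3 bases before the end in this class of snoRNA is in capitals where it was found. It was found in 9 of the 12 genes called lower and in 11 of 17 others with a position.
Snora33, chr10:23505153-23505281, minus strand: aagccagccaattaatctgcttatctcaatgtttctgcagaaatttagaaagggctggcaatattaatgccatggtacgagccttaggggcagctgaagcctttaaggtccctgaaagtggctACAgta
Snora30, chr7:134671388-134671517, plus strand: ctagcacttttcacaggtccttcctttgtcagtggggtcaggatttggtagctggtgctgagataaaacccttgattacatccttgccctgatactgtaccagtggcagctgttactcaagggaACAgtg
Snora47, chr13:96100555-96100692, plus strand: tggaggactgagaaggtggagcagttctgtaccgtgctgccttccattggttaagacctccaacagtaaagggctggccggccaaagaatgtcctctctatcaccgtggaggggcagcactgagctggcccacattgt

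The genes that contain these snoRNA genes on the same strand were not called. Among the 12 called snoRNA genes and Gm12238, a short transcript that overlaps an annotated Snora29 copy, 9 lay in a host gene that was tested. No host was called, and the host log2 fold changes ran between -0.41 (Zbed3) and 0.92 (Rps2). Rps12, Rps2 and Rpl10 missed a call on the size of the change alone. Their log2 fold changes were 0.92, 0.92 and 0.83 (adjusted p = 0.00147, 0.00451 and 0.000558, limma). G3bp1, Zbed3, Ncl and Eif4a2 had negative values (-0.37, -0.41, -0.18 and -0.09, adjusted p = 0.138, 0.223, 0.504 and 0.743, limma). Rps12, the host of Snora33, was 100.3 and 97.7 FPKM in Tdp43 oKO oocytes, against 54.5 and 49.6 FPKM in control oocytes. Zbed3, the host of Snora47, was 583 and 550 FPKM against 822 and 693 FPKM. Of 15 genes listed for their role as snoRNA hosts, Snhg1 (14.98 and 12.2 against 4.97 and 4.85 FPKM) and Snhg3 (8.20 and 9.11 against 2.47 and 1.75 FPKM) were called higher. Gm12238 was 18.9 and 8.58 FPKM against 46.5 and 70.6 FPKM (log2 fold change -2.08).

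Apart from the zona and secreted factor list, lists for the oocyte and its maturation had few calls, as did all genes tested. Of 20 genes for the zona, secreted factors and oocyte regulators, 3 were called higher (15%, against 4.24% over all genes) and the median log2 fold change was -0.01. Zp3, which encodes a zona pellucida protein and whose promoter drives the Cre transgene, was 297 and 323 FPKM in Tdp43 oKO oocytes, against 157 and 87.1 FPKM in control oocytes (log2 fold change 1.40, SE 0.29, adjusted p = 0.00238, limma). Cd9, a membrane protein needed for fusion with sperm, was 125 and 138 FPKM against 59.4 and 55.2 FPKM (1.18), and Figla, a transcription factor of zona genes, 9.59 and 11.3 FPKM against 6.18 and 2.58 FPKM (1.17). Zp2 was 270 and 253 FPKM against 151 and 113 FPKM, at a log2 fold change of 0.99, just under the 2-fold threshold. Khdc3, of the subcortical maternal complex, was 255 and 247 FPKM against 86.2 and 55.8 FPKM (1.84) and was the one gene called of 33 maternal-effect genes. Ooep of the same complex was 1.06 times as high (log2 fold change 0.08). None of 76 listed genes of the meiotic cell cycle was called, with a median of -0.05. Some related genes outside that list were lower, such as Cep192 (called, log2 fold change -1.60) and Tex12 and Cenpe, given below. At most 1 gene was called in each of the lists for mRNA storage and decay (Tob1, higher, of 53), for hnRNP, FET and SR proteins (Tardbp, of 52) and for the proteasome (Psmb7, higher, of 40). Of 50 translation factors Eif3g and Eif4ebp1 were higher and Eif4g3 lower, and none of 18 aminoacyl-tRNA synthetases was called (median -0.24). Of the 40 genes of the snRNP core, Cdc5l, Lsm4, Lsm6 and Snrpd2 were higher. Of 14 genes described as TDP-43 targets in other cells 7 were tested, and Grn, which encodes progranulin, was called lower (4.07 and 2.00 against 8.91 and 7.38 FPKM, log2 fold change -1.22). Of these 7 genes 6 were below 0, and the median was -0.50, against -0.07 over all genes. In 5 of them both Tdp43 oKO libraries lay below both control libraries, as in 35.2% of all genes. Of the genes of the 2-cell burst, 1 was high enough to be tested (Eif1a), and it was not called.

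Tested gene by gene as the difference between the 2 effects, the change in MII oocytes was above that in FGO in 243 genes (3.07%) and below it in 63 (0.797%), together 3.87%. These counts depend on the weights and on single libraries: they were 130 and 27 without weights, 120 and 32 without the second Tdp43 oKO library, 165 and 46 without the first, and 252 and 148 without the second control library. The change was above that in 1-cell embryos in 346 genes (4.38%) and below it in 42 (0.531%), together 4.91%, with 197 and 19 without weights, 171 and 23 without the second Tdp43 oKO library and 191 and 20 without the first. Among the 335 genes called higher in MII oocytes, 157 differed from FGO in this way, and 111 differed from both FGO and 1-cell embryos. Of the 105 called lower, 21 differed from FGO and 9 from both. The called genes were chosen on the same MII libraries, which favours a difference in the direction of the call. The difference was not called for Nlrp4e, Usp15, Ggct, Tsfm, Acat1, Unc13c or Tardbp, whose log2 fold changes in FGO were -1.84, -2.29, -2.46, -2.25, -2.57, -2.67 and -2.32. For Mt1 the change was larger in FGO (746 and 927 FPKM in Tdp43 oKO FGO, against 2.74 and 0.907 FPKM in control FGO, log2 fold change 8.29). Dcpp1 changed in opposite directions, with 3.62 and 4.03 FPKM in Tdp43 oKO FGO, against 15.9 and 12.4 FPKM in control FGO, and the difference of the log2 fold changes was 4.02 (adjusted p = 5e-06, limma).

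**Figure D5:**
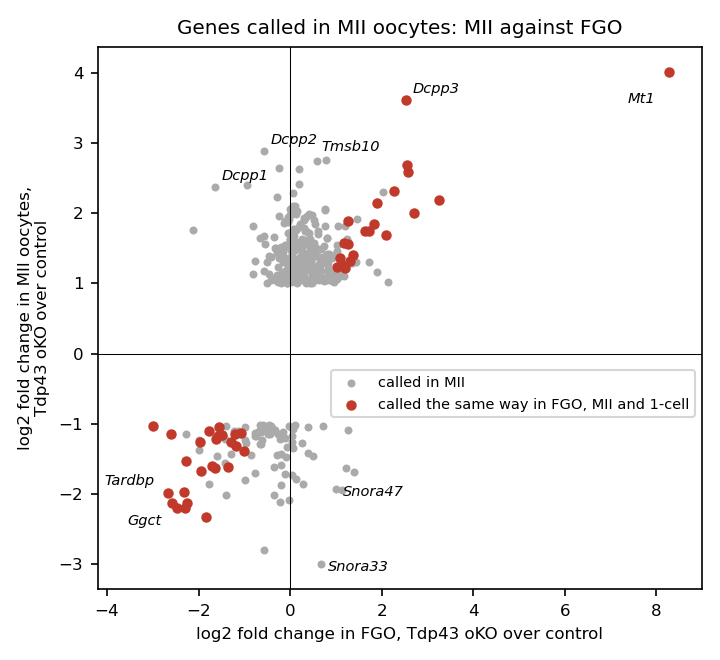
Log2 fold change of Tdp43 oKO over control in MII oocytes (vertical) against that in FGO (horizontal) for the 440 genes called in MII oocytes, with genes called the same way in FGO, MII oocytes and 1-cell embryos in red. Mt1 lies far to the right (8.29 in FGO, 4.01 in MII oocytes). The 335 genes called higher in MII oocytes have a median of 0.22 on the FGO axis, against 0.03 over all genes tested, and 253 of them lie above 0. They were chosen by their MII values, which alone favours a smaller change in FGO.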

How the data were processed

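RNA-seq values were deposited as FPKM per gene in 1 table. The authors trimmed the reads of Smart-seq2 libraries, aligned them to mm9 with HISAT2 2.2.1 and computed gene expression with StringTie 2.1.2 among other counters. The trimming tool is Trim Galore 0.6.6 in the submitters' processing notes and Cutadapt in the methods. Of 24085 listed genes, 2 without values and 27 with names turned into dates were left out. No read counts are given, so the depth is unknown and no count test was run, and an exact 0 is given as listed at 0.

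Log2(FPKM + 1) values of the 24 RNA-seq libraries (12 groups) entered 1 linear model (limma 3.58.1, R 4.3.3) that weighted each collection stage and left 12 residual degrees of freedom. On this scale the fold change of low genes is understated. Genes with a mean of at least 1 FPKM over the 4 MII libraries were tested, with p-values adjusted over all of them by Benjamini-Hochberg. Calls required an adjusted p no higher than 0.05 together with a log2 fold change of 1 or more in size. Errors are the SE of limma. The change in MII oocytes minus that in FGO or 1-cell embryos was tested in the same fit. On simulated data of the MII comparison, 36% of genes changed by 1 on the log2 scale, 87% of those changed by 1.5 and 97% of those changed by 2 were called, with 2 unchanged genes called among 7848 tested. The changed genes were drawn from those of at least 2 FPKM in control oocytes. A call requires an estimate of at least 1, which limits the share called at a change of 1. Noise was drawn separately for each gene, so deviations that many genes of a library share were not simulated. Gene lists are described by counts and medians.

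Named are Tardbp, the 15 largest called increases and decreases among genes with a mean of at least 5 FPKM and groups apart, up to 4 called genes per list (or its 2 most abundant genes where fewer than 2 were called), and members of their families. Of the 15 increases, 1 is not reported here. Other genes were chosen after their values were seen. The members and lists were chosen with earlier results of these data known. Positions, lengths and sequences are from the mm9 genome (NCBIM37) and GENCODE vM1, and a length was found for 97.0% of the genes tested. The alternatives were other pseudocounts, filters, scalings, weights and fits, a replicate block, removal of the trend on transcript length (lowess, span 0.3) and leaving out each library. The 16 Stacc-seq samples were not analysed here.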

Additional observations from a re-analysis of the deposited data

Results flagged for a closer look

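The effect of maternal TDP-43 loss differed between MII oocytes and a neighbouring stage, by the test of the difference itself in limma, in the following results. The change in MII oocytes was above that in FGO in 243 genes and below it in 63, and above that in 1-cell embryos in 346 genes and below it in 42. Without the second Tdp43 oKO library these counts were 120 and 32 for FGO and 171 and 23 for 1-cell embryos, without weights 130 and 27 and 197 and 19, and without the second control library 252 and 148 for FGO. The genes with the largest changes were chosen on the same MII libraries, which favours a difference in the direction of the change. Among the largest increases, the difference of the log2 fold changes (MII oocytes minus FGO) was 4.02 for Dcpp1, 3.45 for Dcpp2 and 1.07 for Dcpp3, 3.33 for Bfsp1, 2.52 for E330017A01Rik, 2.15 for Tmsb10 and 1.96 for Cst3. It was 2.44 for Rps27rt and 2.23 for Rps27. For Mt1 it was -4.27, since the increase was larger in FGO. Among the largest decreases it was -3.67 for Snora33, -2.93 for Snora47, -2.24 for Snora30, -2.05 for Gm12238, -1.90 for Cd300c and -1.66 for 9130015A21Rik. Snora47 was called higher in Tdp43 oKO FGO (log2 fold change 1.00) and lower in Tdp43 oKO MII oocytes (-1.93).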

How the results depend on the processing

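Tardbp kept its call under every alternative, and no called gene among those named changed direction. Named genes that were not called were not checked for direction. Of 92 called genes named besides Tardbp, 45 kept their call under every alternative and 62 without any 1 library. A pseudocount of 5 gave 141 genes higher and 24 lower in Tdp43 oKO MII oocytes, 15 respiratory chain genes higher, and 166 and 186 genes whose change differed from that in FGO and 1-cell embryos. A pseudocount of 0.1 gave 165 lower, and a minimum mean of 5 FPKM gave 57 lower among fewer genes tested. With the trend on length removed, 213 genes were higher, and 12 ribosomal protein and 12 respiratory chain genes, and 67.8% of calls were increases, against 76.1% (85.5% with a pseudocount of 5, 81.9% with median-ratio scaling). Without weights 157 genes differed from FGO and 216 from 1-cell embryos. The cause of these changes was not tested. Leaving out 1 library gave 211 to 464 genes higher, 62 to 132 lower, 152 to 400 that differed from FGO and 194 to 538 that differed from 1-cell embryos, with the lowest value without the second Tdp43 oKO library each time (without the first, 211 differed from 1-cell embryos). For ribosomal protein and respiratory chain genes it gave 19 to 24 and 17 to 24 higher. The lone library left is assumed to vary like the other groups. Snora33 and Gm12238 lost their call without that library and in the fit of the 4 MII libraries alone, Snora47 and Cd300c without that library, Id3 in the fit of the 4 libraries, and Snora75 under 8 alternatives. Equal replicate numbers of the genotypes do not mark shared animals in the labels, and their deviations correlated at -0.02 across genes. With the replicate block 334 genes were higher and 106 lower. In the fit of the 4 MII libraries alone the stage differences could not be fitted.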

Other observations

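The genes below were chosen after their values were seen. Hormad1, which encodes an axis protein of meiotic chromosomes, changed in opposite directions before and after maturation. It was 11.5 and 11.3 FPKM in Tdp43 oKO MII oocytes, against 29.1 and 52.3 FPKM in control MII oocytes, and 42.1 and 41.0 FPKM in Tdp43 oKO FGO, against 15.4 and 15.1 FPKM in control FGO. The difference of the log2 fold changes was -3.08 (adjusted p = 2.23e-05, limma), and Hormad1 was called higher again in 1-cell embryos (1.52). Tex12, of the synaptonemal complex, was 62.2 and 65.8 FPKM in Tdp43 oKO MII oocytes, against 156 and 180 FPKM in control MII oocytes, and was lower in FGO too (log2 fold changes -1.37 and -2.00). Cenpe, a kinesin of the kinetochore, was 17.7 and 18.6 FPKM against 38.7 and 41.2 FPKM in MII oocytes, with log2 fold changes of -1.098 in MII oocytes and -1.13 in FGO.

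Several transcripts outside the lists were higher in Tdp43 oKO MII oocytes, and for each the change was above that in FGO by the test of the difference. Calm2, which encodes the calcium sensor calmodulin, was 1340 and 1414 FPKM in Tdp43 oKO oocytes, against 479 and 470 FPKM in control oocytes (log2 fold change 1.53). Dppa5a, a marker of pluripotent cells, was 1192 and 1230 FPKM against 344 and 306 FPKM (1.90). Fis1, of mitochondrial fission, was 25.4 and 31.1 FPKM against 7.43 and 7.29 FPKM (1.80), and Bnip3l, a receptor of mitophagy, 79.5 and 93.7 FPKM against 38.5 and 30.4 FPKM (1.31). Ldhb, of lactate dehydrogenase, was 4659 and 4358 FPKM against 2414 and 1923 FPKM (1.06). The groups did not overlap in these genes, and their part in the relation with transcript length was not tested.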
